A study of Mus musculus with 19 samples.

Results

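Transcripts of 10 genes that encode inflammatory cytokines or acute phase proteins were followed in mouse lung: Il1b, Il1rn, Il6, Tnf, Il33, Il18, Saa3, Lcn2, Hp and Orm1. A member was any array probe whose RefSeq accession mapped to one of these symbols, whatever its value. This gave 10 probes, 1 for each gene, of 55681 probes on the array, and 20660 gene symbols were on it in all. The lungs came from 18 male MutaMouse, a transgenic strain used for mutation assays, on a BALB/C-DBA/2 background and about 12 weeks old. The mice received olive oil alone (D0, 5 mice) or a mixture of 8 polycyclic aromatic hydrocarbons (8PAH-Mix) in olive oil by oral gavage on 28 days in a row. The doses were 15 (D1, 4 mice), 30 (D2, 5 mice) and 60 (D3, 4 mice) mg benzo[a]pyrene (BaP) equivalents/kg-day, and lungs were taken 72 h after the last one. The question was which of these transcripts differed from the vehicle control, and at which dose.

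Each of 19 arrays carried lung RNA in the red channel and a common reference RNA, a pool of mouse cell lines, in the green channel. Values are log2 ratios of lung over reference, so a value of 1 above another is a doubling. The RNA of D3 mouse 35 was hybridised on both of 2 arrays, and their mean was used. Median red signals were 114 to 151.5 per array, and 54.5% to 64.7% of spots were well above background in red. The arrays lay on 3 slides that each held all 4 groups, and arrays of 1 dose sat in the same column of each slide. Column and dose thus cannot be told apart. Mouse 23 carries a D2 label, although its number lies between those of D1 animals and the methods count 1 more animal in D1. It was kept in D2. With it counted in D1 or left out, the same 3 members passed the test at D3 and in the trend over dose, and none at D1 or D2. In a whole lung, more cells of a type and more RNA per cell cannot be told apart.

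Interleukin 1 beta, interleukin 6 and tumour necrosis factor are cytokines that myeloid cells release early in inflammation, and interleukin 33 and interleukin 18 are alarmins or precursors held ready in epithelial and other cells. Through NF-kB, STAT3 and C/EBP factors these cytokines raise the transcription of acute phase proteins. Most of those proteins are made by the liver, but serum amyloid A3, lipocalin 2 and haptoglobin are also made in the lung.

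At the highest dose 3 of these transcripts rose, Saa3, Il1b and Lcn2, and no member was called lower at any dose. Saa3 was 2.96-fold, Il1b 2.10-fold and Lcn2 1.75-fold higher in D3 than in D0. Il6, Il1rn and Orm1 were too dim to test. Tnf, Il33, Il18 and Hp did not pass the test at any dose. A gene was called when the adjusted p was at most 0.05 over 31015 tested probes and the change was at least 1.5-fold. At D3, 3 of the 7 tested members were called, all higher, while 2.43% of all tested probes were called in either direction and 1.21% of all tested probes were called higher. At D1, 0 of 7 were called against 1.06% of all probes, with 1 member (Il1b) at an unadjusted p under 0.05, as were 19.8% of all probes. At D2, 0 of 7 were called against 0.626% of all probes, with 2 members (Saa3 and Il18) at an unadjusted p under 0.05, as were 14.7% of all probes. In a test over all 4 groups, Saa3 (adjusted p = 0.0115) and Il1b (adjusted p = 0.047) passed, 2 of 7, where 7.79% of all probes passed. The 3 doses were compared with the same D0 mice.

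The upstream sequences of the 3 called genes are shown because all 3 moved in 1 direction at D3. Each is the 250 bases before the annotated start, 5′ to 3′ on the gene's strand, from RefSeq on GRCm38.p6. The windows are chr7:46715677-46715926 for Saa3, chr2:32387740-32387989 for Lcn2 and chr2:129371140-129371389 for Il1b, all on the minus strand. Capitals mark matches to TTNCNNAA, the core bound by C/EBP factors, on either strand.
Saa3: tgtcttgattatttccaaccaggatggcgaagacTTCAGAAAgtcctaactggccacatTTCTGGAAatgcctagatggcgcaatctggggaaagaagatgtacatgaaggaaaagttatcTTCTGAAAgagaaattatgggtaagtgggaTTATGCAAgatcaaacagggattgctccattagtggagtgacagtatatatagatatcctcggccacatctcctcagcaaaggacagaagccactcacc
Lcn2: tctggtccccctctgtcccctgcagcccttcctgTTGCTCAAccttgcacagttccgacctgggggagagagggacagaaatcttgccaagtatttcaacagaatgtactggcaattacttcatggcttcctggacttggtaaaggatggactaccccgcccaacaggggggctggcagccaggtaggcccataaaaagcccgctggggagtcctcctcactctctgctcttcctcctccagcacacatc
Il1b: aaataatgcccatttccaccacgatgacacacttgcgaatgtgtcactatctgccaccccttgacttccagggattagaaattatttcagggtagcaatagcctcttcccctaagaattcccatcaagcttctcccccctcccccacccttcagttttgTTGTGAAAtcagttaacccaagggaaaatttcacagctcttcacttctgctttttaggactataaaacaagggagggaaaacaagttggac
The Saa3 window held 4 matches, at 216, 191, 129 and 99 bases before the start. Lcn2 held 1 match at 216 bases and Il1b 1 match at 91 bases. Members that were not called held it too, with 2 matches in Tnf, 1 in Il6, 1 and 2 in the windows of Il33 and 0, 1 and 3 in those of Il1rn, and only Il18 had none. Of 32841 windows of this length, 36.9% held the same pattern, so 1 match is common. The table of windows held 8 of the 10 members, so the upstream sequences of Hp and Orm1 were not analysed here. A consensus for NF-kB, found in 3.9% of all windows, matched only in Il6 among these members, 44 bases before the start. The AP-1 pattern TGANTCA (6.75% of windows) matched in Il6 and in 1 of the windows of Il1rn. The STAT pattern TTCNNNGAA (7.02%) matched in none of them, and GCGTG, the core bound by the aryl hydrocarbon receptor (28.2%), matched in Il1rn alone. Both strands were searched, and these patterns can overlap each other.

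**Figure D1:**
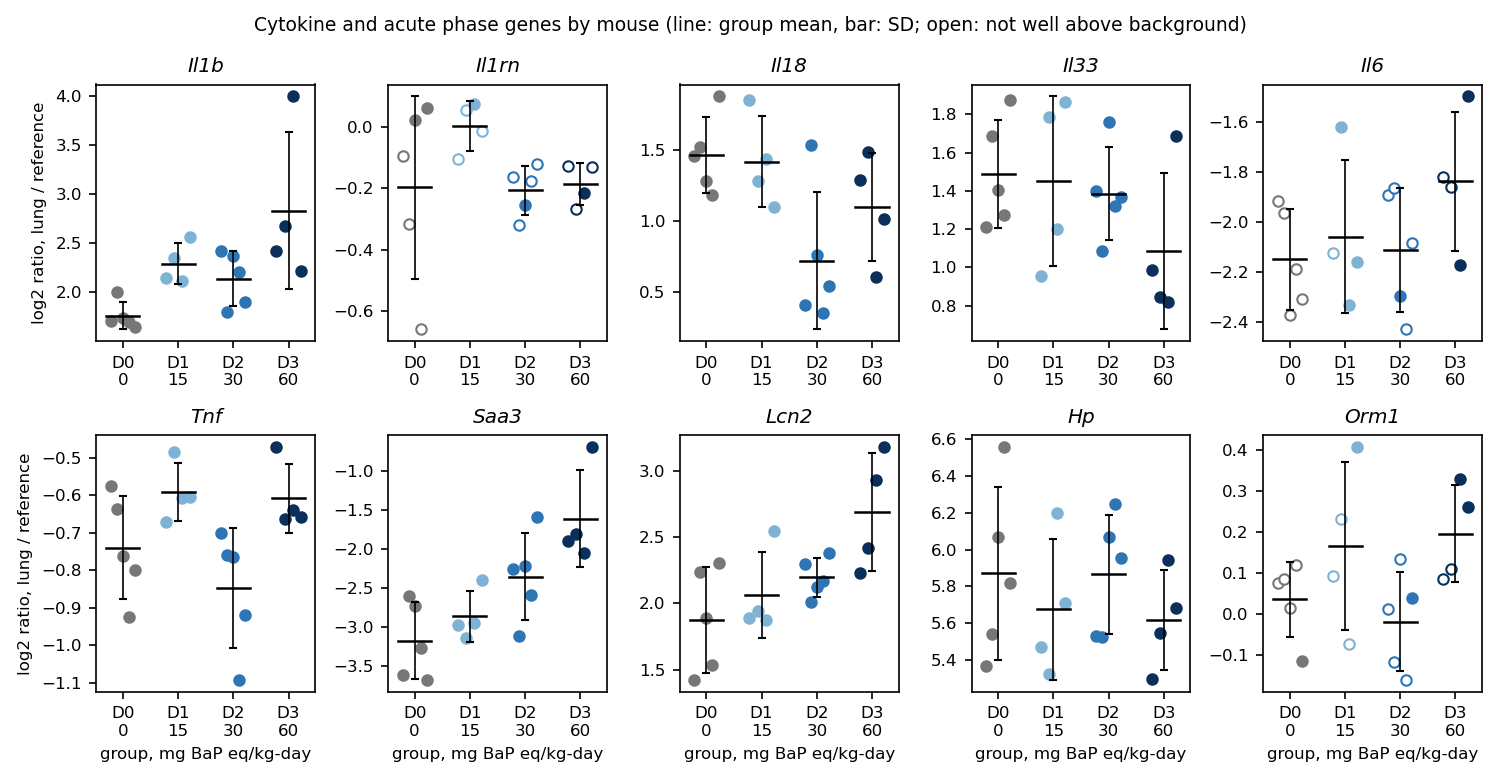
Log2 ratio of lung over reference RNA for the 10 genes in every mouse, by group and dose in mg BaP equivalents/kg-day, with the group mean (line) and SD (bar); open circles are mice in which the probe was not well above background. Saa3 in D3 lay at -2.06 to -0.69, above all D0 mice, and Il1b in D3 at 2.22 to 4.00, also above all D0 mice, while Il1rn, Il6 and Orm1 are mostly open circles.

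Il1b (NM_008361) encodes the precursor of interleukin 1 beta, which caspase-1 cleaves to the active cytokine. The log2 ratio was 1.71, 2.00, 1.74, 1.70 and 1.65 in the D0 mice. It was 2.14, 2.35, 2.11 and 2.57 in D1. It was 2.41, 1.80, 2.37, 2.21 and 1.90 in D2, and 2.42, 2.68, 4.00 and 2.22 in D3. Every mouse of D1 and D3 lay above the highest D0 mouse, while D2 overlapped D0, and mouse 34 of D3 stood apart at 4.00. The D0 mean was 1.76 ± 0.14 (SD, n = 5), and it rose to 2.83 ± 0.80 in D3 (SD, n = 4). This change was 1.07 ± 0.25 (SE) on the log2 scale, with an adjusted p of 0.00795 and a 95% confidence interval of 1.47-fold to 3.00-fold. Without mouse 34 it was 0.68 with an adjusted p of 0.00775, so the call held at a smaller size. The change at D1 was 0.53 (adjusted p = 0.237) and that at D2 was 0.38 (adjusted p = 0.491). Without mouse 34 the adjusted p at D1 was 0.0338, at 1.44-fold, which is under the fold threshold. At D1, 4.73% of all probes had every treated mouse above every D0 mouse, and at D3 7.47% did.

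Saa3 (NM_011315) encodes serum amyloid A3, an acute phase protein made outside the liver by macrophages and epithelium. Ratios were below 0 in all mice, that is, the lung held less of this transcript than the reference. They were -3.61, -2.60, -2.73, -3.27 and -3.68 in D0 and -2.97, -3.14, -2.96 and -2.40 in D1. In D2 they were -2.26, -3.12, -2.22, -2.59 and -1.60, the last in mouse 23, and in D3 -1.90, -1.80, -2.06 and -0.69, the last in mouse 35. All D3 mice lay above all D0 and all D1 mice, while D1 and D2 overlapped D0. The D0 mean was -3.18 ± 0.50 (SD, n = 5), and it rose to -1.61 ± 0.62 in D3 (SD, n = 4). The change was 1.57 ± 0.30 (SE) on the log2 scale, with an adjusted p of 0.00227 and an interval of 1.91-fold to 4.58-fold. It was the 27th highest of 31015 changes at this dose. The changes at D1 and D2 were 0.31 (adjusted p = 0.621) and 0.82 (adjusted p = 0.154). Without mouse 23 the D2 change was 0.63 (adjusted p = 0.3), and with mouse 23 in D1 the D1 change was 0.57 (adjusted p = 0.307). Without mouse 35 the D3 change was 1.26 (adjusted p = 0.011).

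Lcn2 (NM_008491) encodes lipocalin 2, which neutrophils store and epithelium secretes, and which binds bacterial siderophores. The ratio was 1.42, 2.23, 1.89, 1.53 and 2.30 in D0. It was 1.89, 1.94, 1.87 and 2.54 in D1, 2.30, 2.01, 2.12, 2.17 and 2.38 in D2, and 2.23, 2.42, 2.93 and 3.18 in D3. The D3 mice 34 and 35 were the highest of all 18, and the lowest D3 mouse, at 2.23, lay within the D0 range. The D0 mean was 1.88 ± 0.40 (SD, n = 5), and it rose to 2.69 ± 0.44 in D3 (SD, n = 4), a change of 0.81 ± 0.20 (SE) with an adjusted p of 0.0128. The interval was 1.31-fold to 2.35-fold. Without mouse 35 the change was 0.65 with an adjusted p of 0.0592, so the call rests on that mouse. The changes at D1 and D2 were 0.19 (adjusted p = 0.669) and 0.32 (adjusted p = 0.472).

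**Figure D2:**
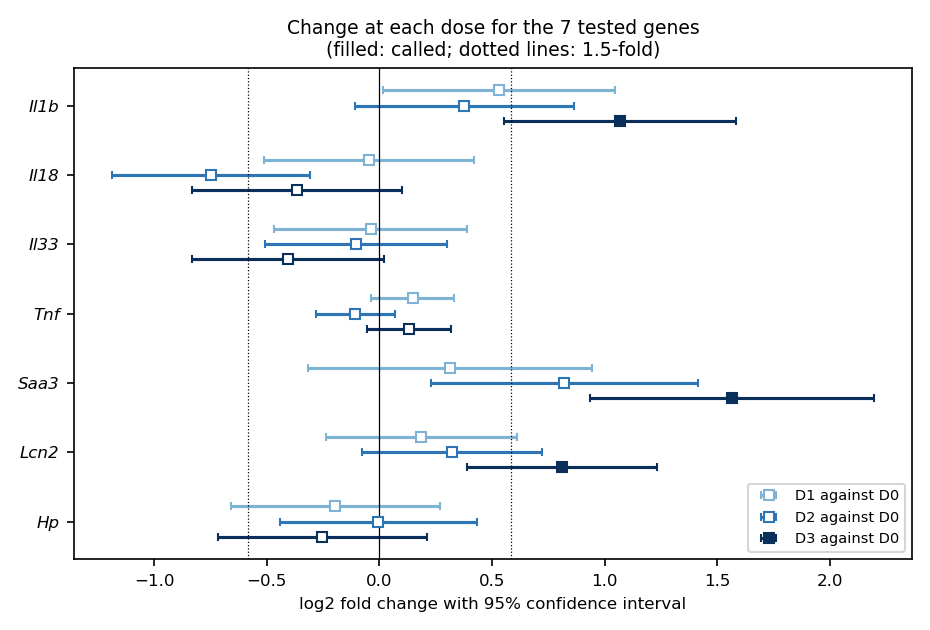
Log2 fold change against D0 with its 95% confidence interval for the 7 tested genes at D1, D2 and D3; filled squares passed the test and dotted lines mark 1.5-fold. The filled squares are Il1b (1.07), Saa3 (1.57) and Lcn2 (0.81) at D3, and Il18 at D2 (-0.75) is the lowest open square.

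The same 3 members passed the test of a linear trend with dose, against 1.53% of all probes in either direction and 0.951% of all probes higher. The fitted change from D0 to D3 was 1.59 ± 0.28 (SE) for Saa3 (adjusted p = 0.0016), 0.97 ± 0.24 for Il1b (adjusted p = 0.0215) and 0.80 ± 0.19 for Lcn2 (adjusted p = 0.0147). Without mouse 35 the trend of Lcn2 was 0.64 with an adjusted p of 0.0653. Without mouse 34 that of Il1b was 0.60 with an adjusted p of 0.0448. Group means of Saa3 and Lcn2 went up at every step of dose, whereas Il1b had a lower mean in D2 (2.14 ± 0.28 SD, n = 5) than in D1 (2.29 ± 0.21 SD, n = 4). The step from D1 to D2 was 0.51 for Saa3 and 0.13 for Lcn2. With mouse 23 counted in D1 it was 0.06 and 0.02.

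The differences between doses were tested directly, and 0 of 7 members were called in any of them. The background was 0% of all probes for D2 against D1, 0.106% for D3 against D2 and 0.145% for D3 against D1. At an unadjusted p under 0.05 the counts were 2, 4 and 2 members, against 9.82%, 11.7% and 7.67% of all probes. From D2 to D3 the change was 0.74 for Saa3 (adjusted p = 0.339), 0.69 for Il1b (adjusted p = 0.288) and 0.49 for Lcn2 (adjusted p = 0.351). Without mouse 34 that of Il1b was 0.30, and without mouse 35 those of Saa3 and Lcn2 were 0.44 and 0.33. Saa3 in D3 lay above all D1 mice (1.25, adjusted p = 0.159), as did 2.13% of all probes. A higher response at D3 than at D1 or D2 was therefore not shown for any of the 3.

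Il18 (NM_008360), a cytokine of the interleukin 1 family that is also activated by caspase-1, had its lowest values at D2. The ratio was 1.46, 1.52, 1.28, 1.18 and 1.88 in D0 and 1.85, 1.28, 1.43 and 1.10 in D1. In D2 it was 0.40, 1.54, 0.75, 0.35 and 0.54, and in D3 1.29, 1.49, 0.61 and 1.01. Of the D2 mice, 4 lay below every D0 and D1 mouse, and mouse 28 at 1.54 lay among them. The D2 change was -0.75 ± 0.21 (SE) with an adjusted p of 0.0704, which misses the threshold. It was called lower without mouse 28 (-0.95, adjusted p = 0.00962), with slide as a block (-0.75, adjusted p = 0.0351) and in the red channel alone (-0.78, adjusted p = 0.0319). Against D1 the D2 change was -0.70 (adjusted p = 0.314) and without mouse 28 -0.90 (adjusted p = 0.0401). At D3 the change was -0.37 (adjusted p = 0.317), and without mouse 34 -0.20 (adjusted p = 0.635). The mean of 12 alveolar macrophage markers, less the D0 mean, was -0.62, -0.27, -0.47, -0.83 and -0.61 in the D2 mice 26, 28, 29, 30 and 23, and these means and Il18 ranked the 5 mice in the same order. In D3 mouse 34 had the lowest Il18 and the highest of these marker means (-0.16). The part of macrophage RNA in Il18 was not tested.

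Il33 (NM_001164724), an alarmin that alveolar epithelial type 2 cells of the mouse lung keep in the nucleus, did not pass the test. The ratio was 1.21, 1.69, 1.40, 1.27 and 1.87 in D0 and 0.99, 0.85, 0.82 and 1.69 in D3. In D3, 3 mice lay below all D0 mice and mouse 35 lay within the D0 range. The D3 change was -0.40 ± 0.20 (SE), with an adjusted p of 0.218 and an interval from -0.83 to 0.02. Without mouse 35 it was -0.61 (adjusted p = 0.0631), and with median centring -0.21 (adjusted p = 0.913). The D1 and D2 values of 0.95 to 1.86 and 1.09 to 1.76 overlapped those of D0.

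Tnf (NM_013693), the gene of tumour necrosis factor, did not pass the test at any dose, and its probe was dim. Its ratio was -0.58, -0.64, -0.76, -0.92 and -0.80 in D0 and -0.47, -0.66, -0.64 and -0.66 in D3, and the groups overlapped. The D3 change was 0.13 ± 0.09 (SE) with an adjusted p of 0.372 and an interval from -0.05 to 0.32, which leaves out a 1.5-fold change under the processing used. All D2 mice (-1.09 to -0.70) lay below all D1 mice (-0.67 to -0.49), as did 1.18% of all probes, by -0.25 (adjusted p = 0.357). All D3 mice likewise lay above all D2 mice, as did 1.81% of all probes, by 0.24 (adjusted p = 0.305). With the scanner software's processed signals these were -0.57 (adjusted p = 0.35) and 0.52 (adjusted p = 0.255), so the sizes depend on this setting.

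Hp (NM_017370) encodes haptoglobin, which binds free haemoglobin. Over all 18 mice its ratios were 5.30 to 6.56, so the lung held much more of it than the reference. The D0 mice were at 5.37, 5.54, 6.07, 6.56 and 5.82 and the D3 mice at 5.30, 5.55, 5.94 and 5.68, which overlapped. The D3 change was -0.25 ± 0.22 (SE) with an adjusted p of 0.513 and an interval from -0.72 to 0.21. With slide as a block it was -0.25 ± 0.11 (SE) with an adjusted p of 0.132, also not called. Haptoglobin varied with the slide: group means on slide 1 were 5.40 to 5.53 and on slide 2 they were 5.93 to 6.31. The pair of arrays of mouse 35, which lay on slides 2 and 3, gave 5.91 and 5.45.

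Il1rn, the interleukin 1 receptor antagonist, was well above background in 2, 1, 1 and 1 mice of D0, D1, D2 and D3. Il6 was so in 0, 3, 1 and 2 mice and Orm1, which encodes orosomucoid 1, in 1, 1, 1 and 2. None reached 4 mice in a group, so they were not tested. Over all mice, ratios were -0.66 to 0.07 for Il1rn, -2.43 to -1.50 for Il6 and -0.16 to 0.41 for Orm1. For Il6 the reference was well above background in all 18 mice, so its ratio is an upper bound in the 12 mice where the lung was not. For Orm1 both channels were near background in 12 mice, and for Il1rn in 6, so those ratios bound nothing. No fold is given for these genes.

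The 3 called genes did not all peak in the same animal. Il1b was highest in mouse 34, Saa3 and Lcn2 in mouse 35. Over the 18 mice, Pearson's r was 0.78 between Saa3 and Lcn2 and 0.60 between Il1b and Lcn2, and it was 0.44 between Il1b and Saa3. After the group means were taken out, these were 0.55, 0.25 and -0.15. The mice share slides, a reference RNA and dose groups, so these values are descriptions. Tnf and Hp ran opposite to each other (r = -0.71, and -0.75 within groups). In every group the mean on slide 2 was lower for Tnf and higher for Hp than on slide 1. In D0 these means were -0.61 and -0.84 for Tnf and 5.45 and 6.31 for Hp on slides 1 and 2. Slide was not taken out of either r, and its part was not tested.

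The tested genes most like each called member over the 18 mice were found by Pearson's r. For Il1b they were Cstdc4 (0.92), S100a8 (0.91) and A530064D06Rik (0.89). For Saa3 they were Tm9sf4 (0.85), Cdk2ap1 (0.83) and Pcdhb18 (0.82). For Lcn2 they were Tmigd3 (0.86), Marchf5 (0.84) and Abhd4 (0.84). Of these 9 genes, Cstdc4 (1.23), S100a8 (1.77) and Tmigd3 (0.77) were also called higher at D3, where 1.21% of all probes were. The 9 genes were picked for tracking, over the same mice, a member that rose at D3. A rise at D3 is thus partly built in, and the count is only a description.

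Most, but not all, markers of neutrophils had higher means in the treated groups than in D0. Of 12 listed markers 11 were on the array and tested, all but Ly6g. At D1 the median of their log2 changes was 0.68, followed by 0.46 at D2 and 0.86 at D3, and the median over all tested probes was 0.01, 0.00 and 0.00. Called higher at D3 were 5 of the 11, beside 1.21% of all probes. They included S100a8, which encodes a subunit of calprotectin (1.77 ± 0.33 SE, adjusted p = 0.00178), Mmp8, neutrophil collagenase (1.49, adjusted p = 6.7e-06), and Retnlg (1.30, adjusted p = 0.00846). The chemokine receptor gene Cxcr2 (0.92, adjusted p = 0.0108) was called as well, and the fifth was S100a9, a call lost under 8 of 30 alternatives. At each dose 9 of the 11 were above D0. The others were Elane, neutrophil elastase (-0.13 at D3, adjusted p = 0.448), and Csf3r, the receptor for granulocyte colony-stimulating factor. Csf3r had a mean of 1.62 in D0 and 1.16 in D3 (-0.46, adjusted p = 0.00655), a difference under 1.5-fold and so not called. Without mouse 34, Retnlg was 0.84 at D3. The scanner software's processed signals gave Mmp8 2.5 at D3 and 1.92 at D1, and Cxcr2 1.52 at D3. Mmp8 was also called at D1 (0.98) and D2 (0.97), and with the processed signals the D2 value was 1.63, with an adjusted p of 0.0947. Mpo, the gene of myeloperoxidase, was called at D1 (0.61), but it was well above background in 3 of 5 D0 mice and passed the filter only through D1 and D2. That call was lost under 16 of 30 alternatives. The summed red signal of the 11 markers was 56521.5 to 79274.5 in D0, 67156.5 to 107687 in D1, 56023 to 128356 in D2 and 67871.5 to 220536 in D3. These sums were not normalized for the brightness of each array. Alveolar type 1 markers, with a median change of -0.23 at D3, summed to 96329 to 155855 in D0 and 90181 to 223896 in D3. The sums thus do not show a rise of neutrophil RNA.

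The mean of the 11 neutrophil markers, less the D0 mean, was 0.49, 0.45, 1.48 and 0.31 in D3 mice 31, 32, 34 and 35. Mouse 34 was thus the highest for these markers and for Il1b, while mouse 35, the highest for Saa3 and Lcn2, was the lowest of the 4. Mouse 34 was also above the D0 mean for adipocyte (1.40), cardiac muscle (1.23) and club cell (0.82) markers, and mouse 35 was below it for the same lists (-0.87, -2.72 and -0.71). In D1 the neutrophil marker means were 0.38 to 0.80, in D2 0.26 to 0.92 and in D0 -0.26 to 0.48. The part of RNA from these cell types in the changes of Il1b, Saa3 and Lcn2 was not tested.

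**Figure D3:**
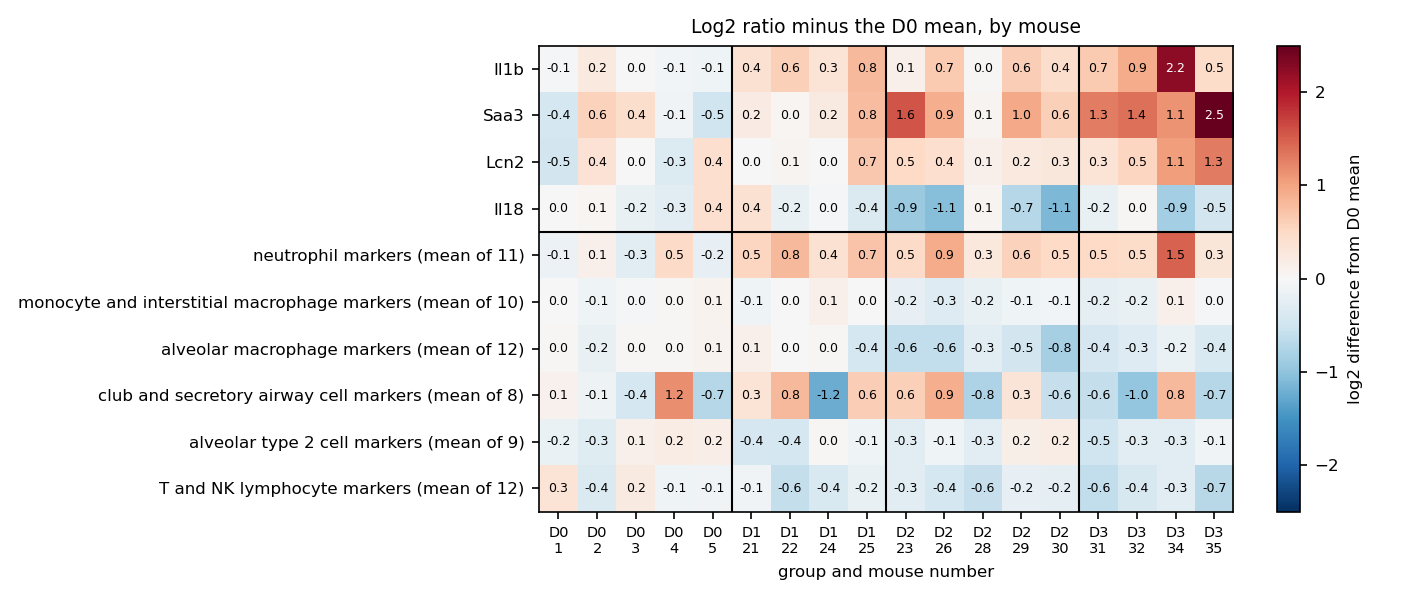
Log2 ratio minus the D0 mean in each of the 18 mice (columns, by group) for Il1b, Saa3, Lcn2 and Il18 and for the mean of 6 cell marker lists; red is higher and blue lower than D0. Mouse 34 has the highest values of Il1b and of the neutrophil markers, and mouse 35 those of Saa3 and Lcn2.

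Markers of other cell types were read against 1.06%, 0.626% and 2.43% of all probes called at D1, D2 and D3. The alveolar macrophage markers had medians of -0.13, -0.41 and -0.39 at D1, D2 and D3, and 2 of 12 were called lower at D2, Siglecf and Ear1, and 1 at D3, Cidec. These calls were lost under 12 of 30 alternatives for Siglecf, 4 for Ear1 and 9 for Cidec. Of the 12 alveolar macrophage markers, 3, 1 and 2 were above D0 at D1, D2 and D3. Of 12 T and NK lymphocyte markers 2 were called lower at D1, 2 at D2 and 3 at D3, among them Gzma, the gene of granzyme A (4.78 ± 0.86 SD in D0, n = 5, and 1.71 ± 0.46 SD in D3, n = 4). Of these 12 markers 3, 4 and 4 were above D0 at D1, D2 and D3, and the medians were -0.22, -0.31 and -0.35. None of the 10 monocyte and interstitial macrophage markers tested was called at any dose, nor was any of the 9 alveolar type 2, 8 club cell, 7 erythroid, 5 adipocyte or 8 cardiac muscle markers. Of 7 endothelial markers Pecam1 was called higher at D1 and Pecam1 and Emcn at D3, where 5 of the 7 were above D0 and the median was 0.07. Of 6 alveolar type 1 markers Cav1 was called lower at D3, where 2 of the 6 were above D0 and the median was -0.23. Of 8 hepatocyte markers 5 passed the filter, and 5, 2 and 4 of them were above D0 at D1, D2 and D3, with medians of 0.35, -0.09 and 0.18. Fabp1 alone was called, lower at D3. Alb, Apoa1 and Ttr did not pass the filter. The part of these cell types in the members' values was not tested.

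Other genes of the same pathways were listed as well. Of 119 listed genes that are not members, 113 were on the array and 95 were tested. At D3, 6 were called, 4 higher and 2 lower, which is 6.32% of those tested beside 2.43% of all probes. At D1 and at D2, 2 were called, 2.11% in each, beside 1.06% and 0.626% of all probes. Il1r2, called at D1 and D3, is among these and passed the filter only through the treated groups, so these shares are descriptions. The median change of the 95 genes at D3 was 0.02.

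In the interleukin 1 family axis (13 tested), Il1r2, the decoy receptor that binds interleukin 1 without signalling, was called higher at D3. Its ratio was 0.27 ± 0.06 (SD, n = 5) in D0, where 1 mouse was well above background, and 1.00 ± 0.34 (SD, n = 4) in D3, a measured difference of 0.72 (adjusted p = 0.00187). At D1 the difference was 0.69 (adjusted p = 0.00601). The probe passed the filter only through the treated groups, and since D0 lay near background these sizes are uncertain. Across alternatives they were 0.56 to 2.23 at D3 and 0.59 to 1.84 at D1, with the highest from the scanner software's processed signals. Without mouse 34 the D3 difference was 0.56, under 1.5-fold. Il1rl1 and Il18r1, the receptor chains of the alarmins that were called, went the other way. Il1rl1, the interleukin 33 receptor, was called lower at D3 (-0.80 ± 0.14 SE, adjusted p = 0.000936). Il18r1, the interleukin 18 receptor, was called lower at D2 (-0.82, adjusted p = 5.5e-05) and D3 (-0.70, adjusted p = 0.000174). The ligands did not pass the test, but their changes were also negative. They were -0.75 for Il18 at D2 (adjusted p = 0.0704) and -0.40 for Il33 at D3 (adjusted p = 0.218). Il18 was called lower at D2 under 3 alternatives. Whether receptors and ligands differed in their changes was not tested.

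None of the 10 inflammasome genes tested, 16 genes of the interleukin 6 axis or 13 NF-kB factors and feedback genes were called at any dose. Their medians at D3 were 0.00, -0.15 and -0.06. In the tumour necrosis factor axis 1 of 15 was called at D3, Tnfsf10, which encodes the death ligand TRAIL (0.75, adjusted p = 0.00811). Of 18 other acute phase genes tested, Serpina3n, a serine protease inhibitor, was called higher at D3 (0.72, adjusted p = 0.0321), a call lost under 7 of 30 alternatives. Its D3 change was 0.24 to 0.83 across alternatives. Fgg, the fibrinogen gamma chain, was called at D1 (0.61, adjusted p = 0.0477), a call lost under 24 of 30 alternatives. Of 10 receptors and carriers of the acute phase proteins, Mmp9, the gelatinase that lipocalin 2 binds, was called higher at D3 (0.68, adjusted p = 0.0179), but without mouse 34 it was not (0.44, adjusted p = 0.056). Its D3 change was 0.44 to 1.62 across alternatives. Tlr2, a receptor for serum amyloid A, was called lower at D2 (-0.60, adjusted p = 0.0232), a call lost under 8 of 30 alternatives.

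**Figure D4:**
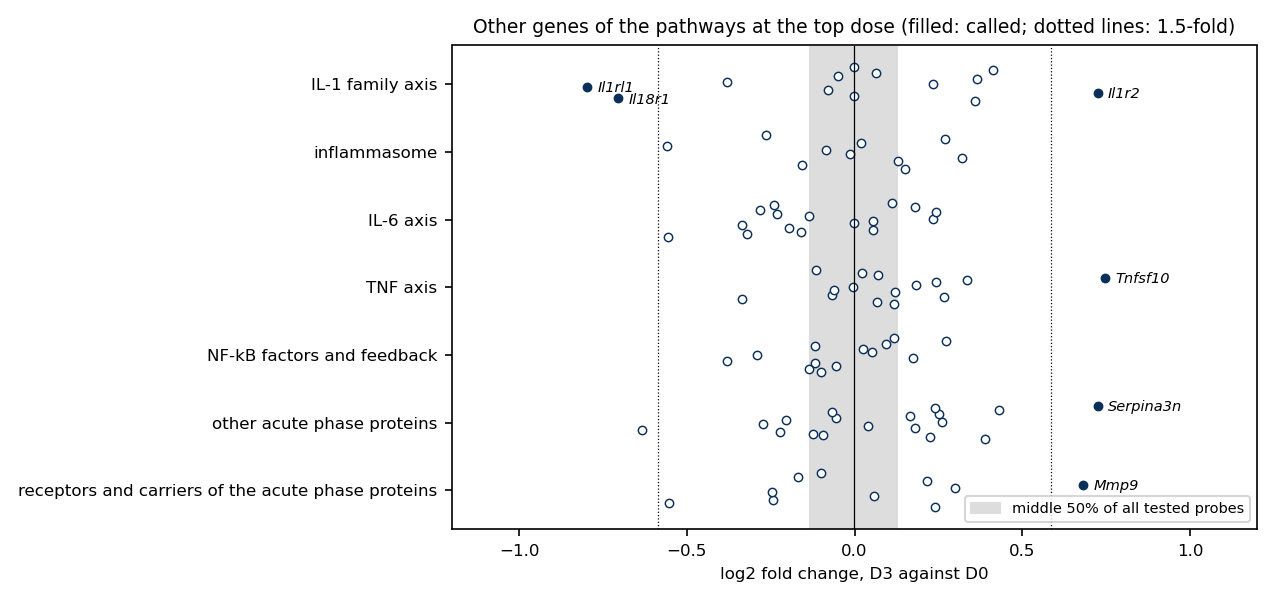
Log2 fold change at D3 against D0 for 95 other genes of the pathways in 7 lists; each circle is a gene, filled where it passed the test, and the grey band holds the middle 50% of all tested probes. The 6 filled circles are Il1r2, Il1rl1, Il18r1, Tnfsf10, Serpina3n and Mmp9, and the rest lie inside 1.5-fold or did not pass.

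The size of the 3 changes at D3 was followed within slides and across settings. Within slides 1, 2 and 3 the difference of D3 from D0 was 0.69, 1.40 and 0.55 for Il1b, 1.26, 1.64 and 2.95 for Saa3, and 0.49, 1.39 and 0.77 for Lcn2. Slide 3 held 1 array of each group. Mouse 35 had an array on slide 2 and the D3 array on slide 3, so those slides are not independent at D3. With slide as a block the changes were 1.06 (adjusted p = 0.0102), 1.62 (adjusted p = 0.00178) and 0.90 (adjusted p = 0.00222). That fit placed mouse 35, the mean of arrays on slides 2 and 3, wholly on slide 2. In the red channel alone all 3 were called, at 0.97 (adjusted p = 0.0197), 1.53 (adjusted p = 0.00464) and 1.21 (adjusted p = 0.00669). The geometric mean green signal of the Lcn2 probe was 2843.57 in D0 and 4152.15 in D3. The part of this in the Lcn2 ratio was not tested. Centring each array on its median in place of the loess curve ended all 3 calls. The changes were then 1.04 (adjusted p = 0.296), 1.69 (adjusted p = 0.228) and 0.90 (adjusted p = 0.793). Under that setting 98 probes in all were called at D3, against 754.

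**Figure D5:**
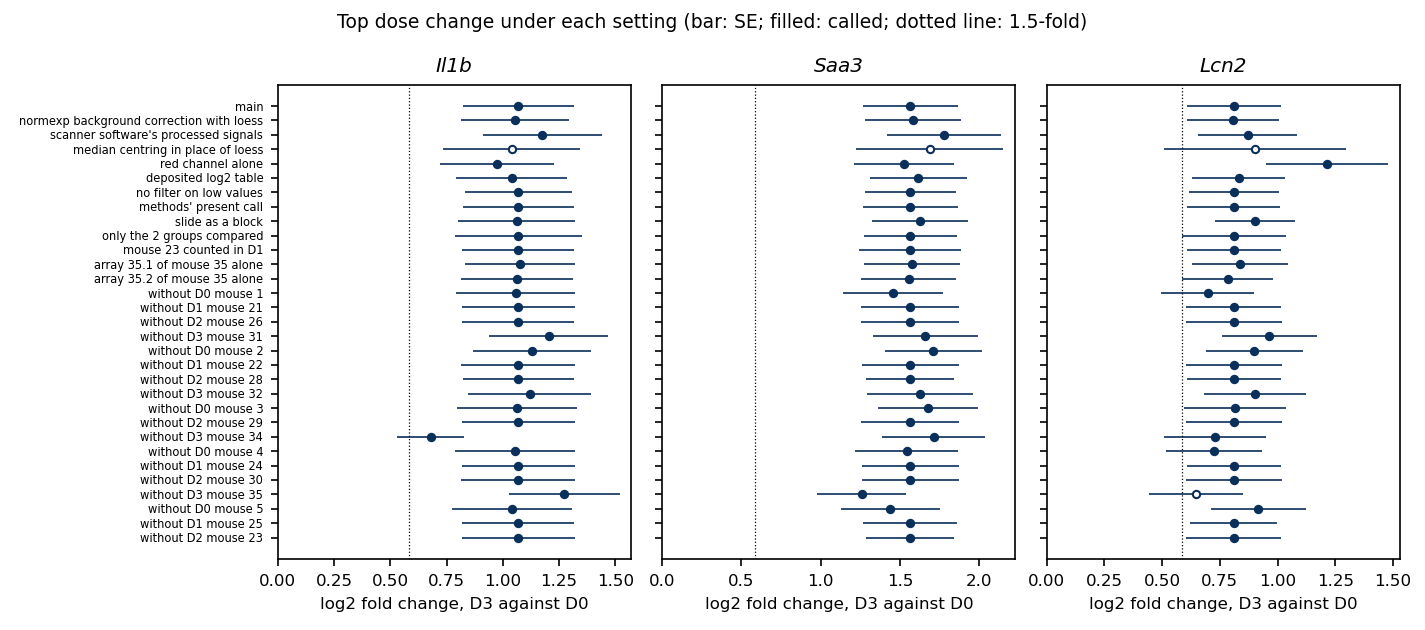
Log2 fold change at D3 against D0 (with SE) of Il1b, Saa3 and Lcn2 under each processing alternative and with each mouse left out; filled circles passed the test, and the dotted line is 1.5-fold. The lowest circle is Lcn2 without mouse 35 (0.65), and the open ones are median centring for all 3 genes and the fit without mouse 35 for Lcn2.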

How the data were processed

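The authors labelled lung RNA with Cy5 and reference RNA with Cy3 and scanned the arrays with Feature Extraction 11.0.1.1, per the file headers. In the deposited scanner output each spot has its median pixel intensity, not normalized. The deposited series table holds log2 ratios that the authors had normalized, and across probes they correlated at 0.995 to 0.998 with those used here. Each array had 62976 spots, 3671 of them controls. Control spots and outlier spots (171 to 323 per array) were left out. Median intensity without background subtraction was normalized by loess (span 0.3) within each array, and log2 ratios of the spots of a probe were averaged. Dyes were not swapped. A probe was tested where red was well above background in at least 4 mice of 1 group, and 80 probes with no spot left in some mice were not used. RefSeq identifiers were matched to a GRCm38.p6 gene table (21465 of 22765), and the headers give another build, so no probe was placed on the genome. The coordinates given are those of the upstream windows in a RefSeq table of GRCm38.p6.

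Groups were compared with limma 3.58.1 (lmFit, eBayes) in R 4.3.3, in 1 model over 18 mice, and p-values were Benjamini-Hochberg adjusted over 31015 probes. For the trend, the fitted difference between D0 and D3 had to reach 1.5-fold. MAANOVA, the study's tool, was not installed. The script was tested on simulated data. The number of arrays limits the precision. Alternatives were other background corrections and normalizations, the red channel alone, the deposited table, other filters, slide as a block, only the groups compared, mouse 23 in D1, each array of mouse 35 and each mouse left out. The members and gene lists were chosen with earlier results of these data known. Named genes are the members, list genes called at any dose (at most 4 per list) and the 3 genes most like each called member. S100a9, Mpo, Csf3r and Elane fall outside this rule and were named after their values were seen. Ly6g, Alb, Apoa1 and Ttr also fall outside it and were named as markers that were not tested.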

Additional observations from a re-analysis of the deposited data

Results flagged for a closer look

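In 3 of 40 sets of values (10 genes in 4 groups), 1 mouse lay far from the other mice of its group by Dixon's test at 95%, and chance gives about 1 in 20. Il1b in D0 was highest in mouse 2, at a log2 ratio of 2.00. Lcn2 in D1 was highest in mouse 25, at 2.54. Tnf in D3 was highest in mouse 31, at -0.47. The cause was not tested.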

How the results depend on the processing

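The 3 members called at D3 and in the trend were called under every alternative other than median centring and, for Lcn2, leaving out D3 mouse 35. Median centring gave 0 members at D3 and 0 in the trend. The cause was not tested. It moved the median change of all probes to 0.169 at D1, 0.121 at D2 and 0.0604 at D3, and that between D3 and D1 to -0.105. Of its called probes 82.7% were higher at D3 (49.6% with loess), 88.9% at D2 (69.6%), 100% at D1 (56.1%) and 83.3% in the trend (62.4%). It called 12, 18 and 98 probes at D1, D2 and D3 and 54 in the trend, where loess called 328, 194, 754 and 473. The scanner software's processed signals called 639, 348 and 1373 at D1, D2 and D3 and 716 in the trend.

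At D2, 1 member (Il18) was called with slide as a block, in the red channel alone and without mouse 28, so the range with 1 mouse left out was 0 to 1. Against D1 it was also 0 to 1. No member was called at D1, or between D3 and the other doses, under any alternative. Pathway genes called at D1 (2) became 0 with median centring, 7 with no fold threshold, and 1 with normexp, the processed signals, red alone, the deposited table, no filter, slide as a block, the 2 groups alone, mouse 23 in D1 and the second array of mouse 35, and ranged from 1 to 2 with 1 mouse left out. At D2 (2) they became 0 with median centring and ranged from 1 to 3. At D3 (6) they became 0 with median centring, 3 with the processed signals and 17 with no fold threshold, and ranged from 4 to 7.

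Changes near 0 that did not pass the test turned their direction. With median centring Il33 was 0.25 at D1 and 0.11 at D2, Il18 0.17 at D1, and Hp 0.17 at D1 and 0.23 at D2. In red alone Il33 was 0.0149 and Hp 0.0806 at D1, and Hp 0.10 at D2, where the deposited table gave 0.0296. With mouse 23 in D1, Tnf in D3 against D1 was 0.0497. With 1 mouse left out, Il33 at D1 ranged from -0.18 to 0.13, Il18 at D1 from -0.1924 to 0.0583, Hp at D2 from -0.13 to 0.17 and Tnf in D3 against D1 from -0.0614 to 0.0198.

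No paired analysis was possible because the mouse numbers are unique to each group. Averaging several probes of a gene was not run, since each member has 1 probe.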
